A study of Mus musculus with 32 samples.

Results

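The Bmp10-high and Bmp10-low atria of Mst1 mice are the 2 arrays of each of 4 transgenic animals, numbered 1466, 1838, 1839 and 1840, and make up 8 of the 32 arrays of the series. The Mst1 animals carry a transgene for the kinase Mst1 and no dnPI3K. The series also holds 4 dnPI3K-Mst1 animals with both transgenes, 4 dnPI3K animals with a dominant negative phosphoinositide 3-kinase, and 4 non-transgenic Ntg animals, all on a combined C57BL/6 and FVB/N background and on standard chow. Each animal gave 1 array labelled left atrium and 1 labelled right, hybridised to Affymetrix Mouse Gene 1.0 ST arrays, which read transcript levels in whole-tissue RNA. The sources used here give neither age nor sex, the promoter of either transgene, nor the number of transgenic lines. The 2 arrays of an animal were told apart by 1 measured gene: the array with Bmp10 above 9 log2 was called Bmp10-high and its partner Bmp10-low, whatever side its label named.

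Bmp10 encodes a secreted ligand of the bone morphogenetic protein (BMP) family. In the adult mouse heart it is known as a product of right atrial myocytes, and it acts on endothelial cells through the receptors encoded by Acvrl1 and Bmpr2. BMP signals pass through SMAD proteins to target genes such as Id1, Smad6 and, in the liver, the iron hormone gene Hamp. The Stk4 product Mst1 belongs to the Hippo kinase cascade, known for limiting organ size and, in heart muscle, for driving apoptosis. The 2 atria of a mouse differ in developmental origin and in what drains into them, and the wall of each holds myocytes, endocardium, fibroblasts, lymphatic vessels and resident macrophages. Comparing the 2 atria of 1 animal holds genotype and individual constant.

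In animals 1466, 1838, 1839 and 1840, the order used for all values below, Bmp10 stood at 11.42, 12.44, 12.51 and 12.55 log2 in the Bmp10-high arrays and at 4.49, 4.94, 6.64 and 3.77 log2 in the Bmp10-low arrays. The lowest array above the threshold of 9 and the highest below it were thus 11.42 and 6.64 log2, and no array lay between them. These values chose the groups and are given as a description. The Bmp10-high array was the one labelled left in 1466, 1838 and 1840 and the one labelled right in 1839. In the dnPI3K-Mst1 and dnPI3K animals all 4 arrays labelled left and none labelled right were Bmp10-high in each genotype, while in Ntg animals 2 of 4 arrays of each labelled side were. The labels therefore disagree among themselves on the side of Bmp10, and most of them run against its known right atrial place; sides are given below as labelled. Among the Mst1 arrays, the Bmp10-high array of 1466 stood apart, with a mean correlation of 0.949 with the other 31 arrays of the series against 0.974 to 0.98 for the other 7.

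The targeted gene Stk4 ranged over 8.03 to 8.42 log2 in the 8 Mst1 arrays and over 7.30 to 7.77 log2 in the 8 Ntg arrays, with no overlap. Between the Bmp10-high and Bmp10-low atria of Mst1 mice it differed by -0.02 ± 0.20 log2 (SD, n = 4 animals). Both kinds of atria carried atrial transcripts. Myl4, the atrial essential light chain, lay between 12.51 and 12.88 log2 in the Bmp10-high arrays and between 12.73 and 12.79 log2 in the Bmp10-low arrays. Nppa, the atrial natriuretic peptide gene, lay between 13.38 and 13.48 log2 in the Bmp10-high arrays and between 13.42 and 13.56 log2 in the Bmp10-low arrays. Myl2, the ventricular regulatory light chain, stayed between 4.73 and 5.49 log2 in the Bmp10-high arrays and between 4.56 and 4.82 log2 in the Bmp10-low arrays, near the filter for low levels of 4.48 log2. On the labelled sides of dnPI3K-Mst1 and dnPI3K mice, a comparison introduced below, Myl2 was higher on the left by 1.86 ± 0.45 log2 (limma, adjusted p = 0.0287). The array labelled left of dnPI3K animal 1648 held 10.7 log2 of Myl2, against 5.21 to 6.57 log2 in the other 7 arrays labelled left, and without that animal the difference was 1.19 ± 0.14 log2 (adjusted p = 2.5e-04). Without any one of 4 other animals the call was lost (adjusted p = 0.065 to 0.0699), and the part of Myl2 in the other results there was not tested. In whole-tissue RNA, fewer cells of a type and less RNA per cell cannot be told apart, which holds for every cell type marker below.

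A gene was counted as higher or lower in the Bmp10-high atrium when all 4 animals differed in that direction and the mean difference was at least 1.5-fold. Because the groups were chosen by a value measured on the same arrays, this contrast was described and not tested, and Bmp10 itself was left out of the counts. Of 15218 genes, 89 were counted as higher (0.585%) and 102 as lower (0.67%). The median difference over all genes was -0.05 log2, and it was 0.75 and -0.78 log2 within the higher and the lower genes. At least 2-fold differences were found in 23 higher and 23 lower genes. Without animal 1466 the counts were 151 higher and 86 lower, and 156 of the 191 genes were also counted then. Without 1838 they were 79 higher and 141 lower. With any animal left out fewer animals have to agree, and the total rose in each case, to between 218 and 241 genes. Had the arrays been set apart by their side labels, 2 genes would have been counted in each direction. The number of animals, 4, limits the precision of every mean.

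**Figure D1:**
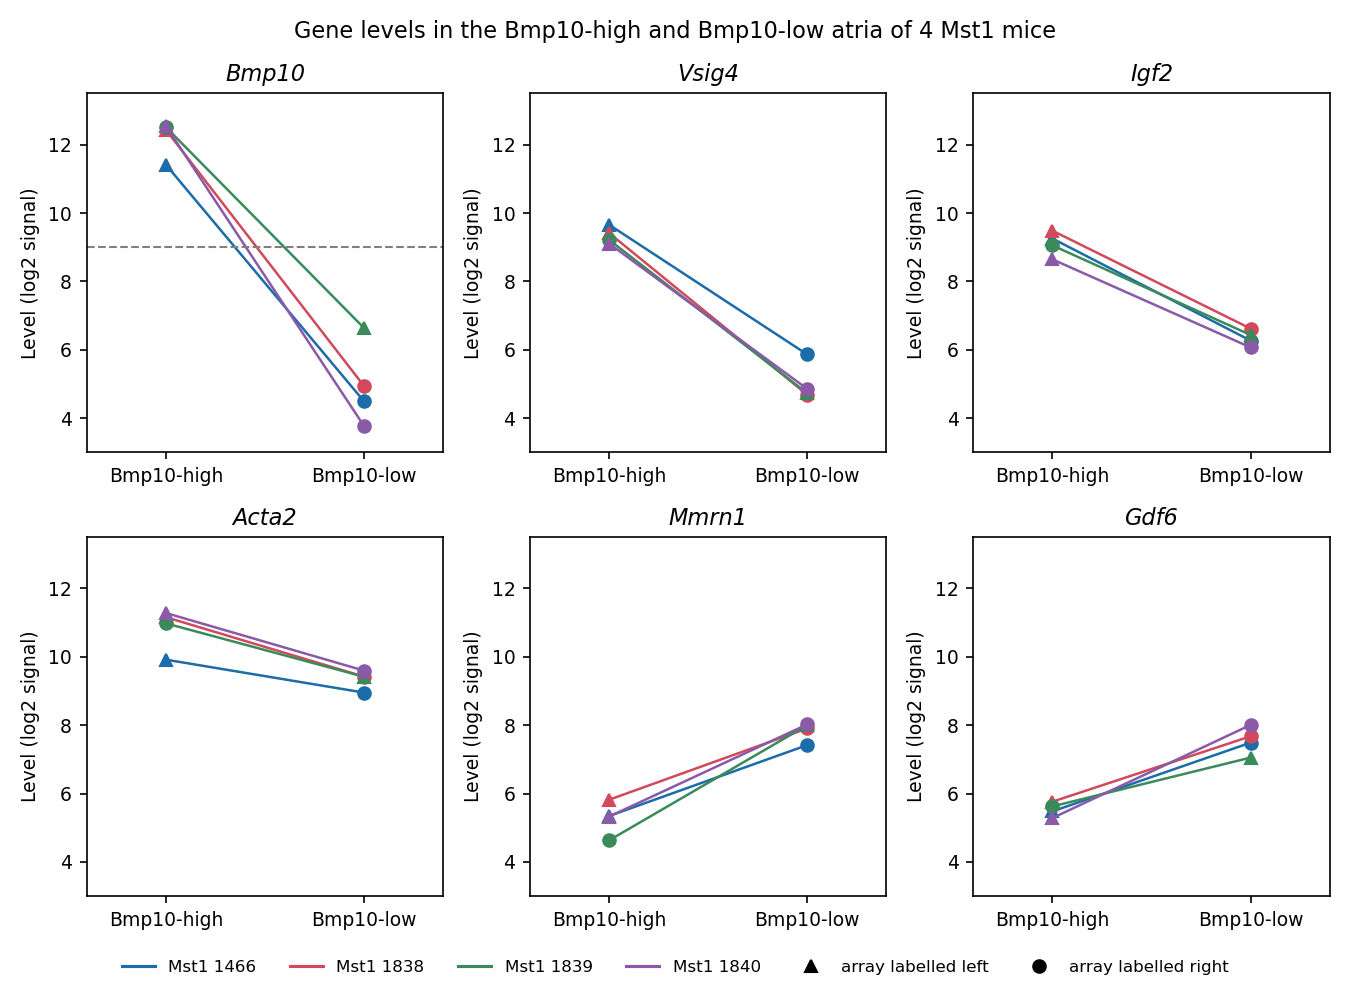
Levels (log2 signal) of 6 genes in the Bmp10-high (left) and Bmp10-low (right) atria of each Mst1 animal; a line joins the atria of 1 animal, triangles are arrays labelled left and circles arrays labelled right, and the dashed line is the 9 log2 threshold for Bmp10. Vsig4, Igf2 and Acta2 are higher and Mmrn1 and Gdf6 lower in the Bmp10-high atrium of all 4 animals, including 1839, whose side labels run the other way.

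The same genes were then tested in other animals, grouped by their side labels. In the 4 dnPI3K-Mst1 and 4 dnPI3K animals, arrays labelled left were compared with arrays labelled right within each animal, with limma and Benjamini-Hochberg adjustment over all genes. In these 8 animals labelled left coincides with Bmp10-high, so a positive left minus right difference has the sign of a higher level in Bmp10-high atria. The labels thus make the same groups there as a split by Bmp10 would. Ntg animals, whose labels do not, were left out of this test. The test called 204 genes higher (1.34%) and 349 lower (2.29%) in atria labelled left. Of the 89 genes counted as higher in the Bmp10-high atria of Mst1 mice, 50 were called higher there (56.2%) and 0 lower. Of the 102 counted as lower, 71 were called lower (69.6%) and 0 higher. The median left minus right difference was 0.48 log2 for the higher genes and -0.49 log2 for the lower ones, against -0.02 log2 over all genes. Values of this test are given below as left minus right with their SE (n = 8 animals) and adjusted p.

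**Figure D2:**
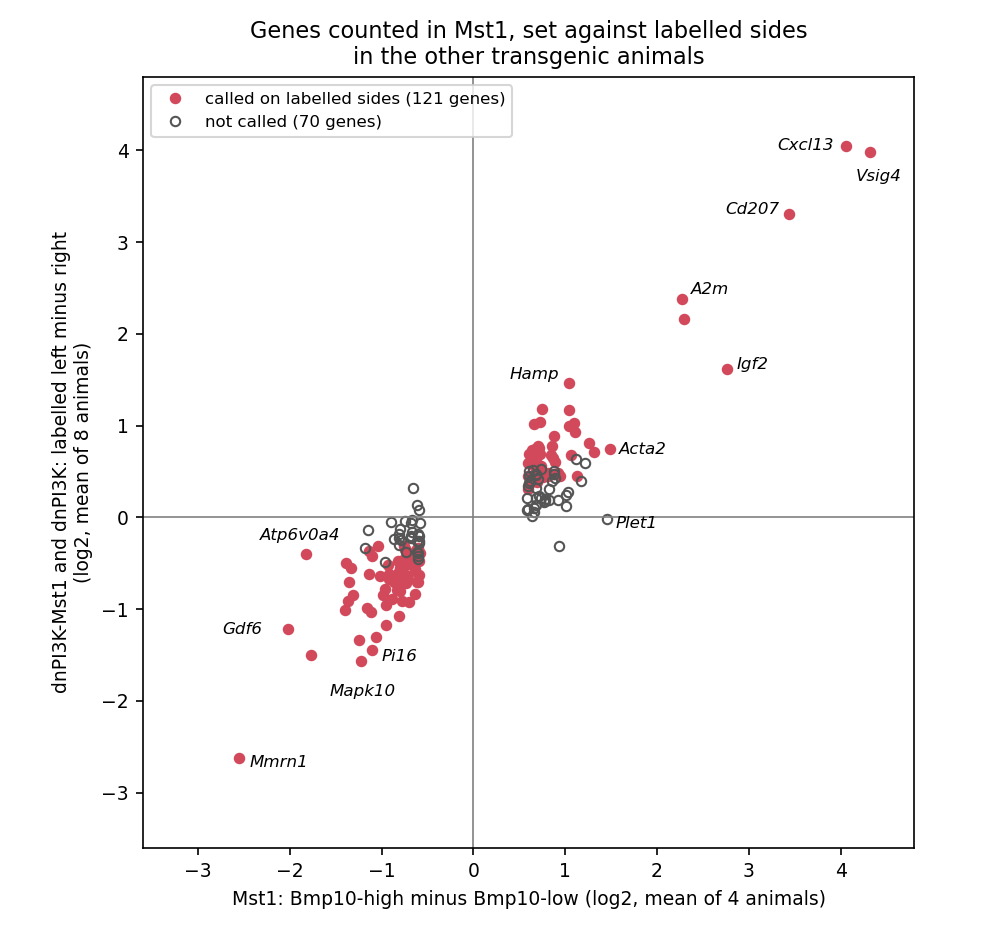
The 191 genes counted in Mst1 mice, plotted by their mean Bmp10-high minus Bmp10-low difference in 4 Mst1 animals (x axis, log2) against the labelled left minus right difference in 8 dnPI3K-Mst1 and dnPI3K animals (y axis, log2). Filled points are the 121 genes called on labelled sides, all of them in the lower left or upper right quadrant, and open points are the 70 genes not called, among them Plet1.

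Genes of macrophages and dendritic cells gave the largest differences after Bmp10. Vsig4, a complement receptor of tissue macrophages, stood at 9.66, 9.41, 9.22 and 9.11 log2 in the Bmp10-high arrays and at 5.86, 4.69, 4.73 and 4.86 log2 in the Bmp10-low arrays. The mean difference was 4.32 ± 0.40 log2 (SD, n = 4 animals), a 19.9-fold higher level. Cxcl13, a chemokine that attracts B cells, stood at 9.26, 8.76, 9.05 and 8.74 log2 in the Bmp10-high arrays and at 4.57, 4.88, 4.89 and 5.21 log2 in the Bmp10-low arrays. Cd207, the C-type lectin langerin of Langerhans and other antigen-presenting cells, stood at 7.77, 8.26, 8.0 and 7.99 log2 in the Bmp10-high arrays and at 4.58, 4.76, 4.58 and 4.33 log2 in the Bmp10-low arrays. For all 3 genes every Bmp10-high array lay above every Bmp10-low array by more than 3 log2. Cxcl13 differed by 4.06 ± 0.49 log2 and Cd207 by 3.44 ± 0.19 log2 (SD, n = 4 animals). On labelled sides, Vsig4 differed by 3.98 ± 0.12 log2 (adjusted p = 1.94e-11), Cxcl13 by 4.05 ± 0.10 log2 (adjusted p = 1.33e-12) and Cd207 by 3.30 ± 0.13 log2 (adjusted p = 4.6e-10).

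The macrophage and dendritic cell list did not move as a block. Of its 27 measured genes, 6 were counted as higher (Vsig4, Cxcl13, Cd207, Cd163, Csf1r and Timd4) and 2 as lower (F13a1 and Mgl2), with a median of 0.35 log2. The summed linear signal of the list was 6189 to 6813 in the Bmp10-high arrays and 3826 to 5125 in the Bmp10-low arrays. The scavenger receptor gene Cd163 differed by 1.06 ± 0.19 log2, the macrophage growth factor receptor gene Csf1r by 0.87 ± 0.40 log2, and Timd4, a receptor for dying cells on resident macrophages, by 0.87 ± 0.13 log2 (SD, n = 4 animals). Those 3 genes were called on labelled sides too, at 0.68 ± 0.11 log2 (adjusted p = 0.00145), 0.47 ± 0.10 log2 (adjusted p = 0.0122) and 0.65 ± 0.07 log2 (adjusted p = 5.36e-05). The list's other members included the macrophage receptor gene Adgre1 with 0.44 ± 0.14 log2, the complement gene C1qa with 0.35 log2, the lysozyme gene Lyz2 with 0.57 ± 0.52 log2 and Cd68 with -0.06 ± 0.36 log2, none of them counted. On labelled sides 6 of the 27 were called higher and 4 lower, with a median of 0.08 log2. The C-type lectin gene Mgl2 stood at 4.88, 4.69, 4.94 and 4.8 log2 in the Bmp10-high arrays and at 6.41, 5.43, 5.81 and 5.89 log2 in the Bmp10-low arrays. It was thus lower in the Bmp10-high atrium of every animal, and on labelled sides it differed by -1.30 ± 0.09 log2 (adjusted p = 7.86e-07). F13a1, the coagulation factor XIII A chain made by macrophages, differed by -0.71 ± 0.25 log2 in Mst1 mice and by -0.92 ± 0.09 log2 on labelled sides (adjusted p = 2.92e-05). Outside the list, the scavenger receptor gene Msr1 differed by 1.10 ± 0.46 log2, and by 1.03 ± 0.13 log2 on labelled sides (adjusted p = 1.55e-04), while the C-type lectin gene Clec4d, at 1.11 ± 0.54 log2 in Mst1 mice, did not pass there (0.64 ± 0.20 log2, adjusted p = 0.107). Without animal 1466, whose Bmp10-low array had the highest list sum of the 4, 10 of the 27 were counted as higher and the same number, 2, as lower.

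Antigen presentation and inflammatory messengers followed in part. Of 7 measured MHC class II genes, 3 were counted as higher and 0 as lower: H2-Aa by 0.73 ± 0.30 log2, H2-Ab1 by 0.62 ± 0.37 log2 and the invariant chain gene Cd74 by 0.88 ± 0.56 log2 (SD, n = 4 animals). Cd74 stood at 8.44, 8.56, 8.94 and 8.99 log2 in the Bmp10-high arrays and at 8.40, 7.47, 7.76 and 7.78 log2 in the Bmp10-low arrays. The groups did not overlap, but the atria of 1466 differed by 0.04 log2 only, against more than 1 log2 in each of the other 3 animals. H2-Ab1 averaged 0.53 log2 without 1839 or without 1840, which is under 1.5-fold. None of the 3 passed on labelled sides (adjusted p = 0.0907, 0.362 and 0.138), where their differences were -0.16, -0.19 and -0.18 log2 in dnPI3K-Mst1 and 1.2, 0.99 and 1.2 log2 in dnPI3K. In dnPI3K alone all 3 passed (limma, adjusted p = 0.00429, 0.037 and 0.00718). The gap between the 2 genotypes did not pass (limma, adjusted p = 0.0621, 0.206 and 0.0801). By the Bmp10 split, all 3 were higher in every Ntg animal, by at least 0.77, 0.94 and 0.97 log2. Of 25 measured cytokine, chemokine and complement genes, 4 were counted as higher (Cxcl13, Ccl6, Il1b and Cxcl9) and 0 as lower. On labelled sides 2 of the 25 were called higher (Cxcl13 and Ccl6) and 4 lower (Ccl11, Cxcl12, Cxcl14 and C7), with a median of -0.04 log2. Cxcl9, a chemokine induced by interferon, averaged 0.57 log2 without 1466 and 0.46 log2 without 1839, both under 1.5-fold. Ccl6, a chemokine of myeloid cells, stood at 7.78, 8.65, 7.96 and 8.52 log2 in the Bmp10-high arrays and at 6.69, 6.98, 6.78 and 7.21 log2 in the Bmp10-low arrays, without overlap. It was called on labelled sides at 0.71 ± 0.13 log2 (adjusted p = 0.00424). The interleukin-1 beta gene Il1b stood at 5.49, 6.01, 5.75 and 5.69 log2 in the Bmp10-high arrays and at 4.81, 4.34, 4.16 and 4.75 log2 in the Bmp10-low arrays, but did not pass on labelled sides (adjusted p = 0.157). T, B and natural killer cell genes were counted 0 times among 9 measured, and their summed signal was 308 to 345 in the Bmp10-high arrays and 289 to 312 in the Bmp10-low arrays.

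Igf2, an imprinted growth factor gene, was the largest difference outside the immune genes. It stood at 9.26, 9.49, 9.06 and 8.65 log2 in the Bmp10-high arrays and at 6.27, 6.62, 6.44 and 6.07 log2 in the Bmp10-low arrays, a difference of 2.76 ± 0.20 log2 (SD, n = 4 animals). The smallest Bmp10-high value exceeded the largest Bmp10-low value by about 2 log2. On labelled sides Igf2 differed by 1.62 ± 0.26 log2 (adjusted p = 0.00146), although the dnPI3K-Mst1 animal 1647 ran the other way with 9.02 log2 on the left and 9.49 log2 on the right. Plagl1, an imprinted zinc finger transcription factor gene, differed by 1.13 ± 0.21 log2 in Mst1 mice and by 0.45 ± 0.12 log2 on labelled sides (adjusted p = 0.0489), a call lost without any one of 7 of the 8 animals (adjusted p = 0.0524 to 0.151). A2m, a proteinase inhibitor gene, stood at 6.47, 7.73, 7.19 and 7.53 log2 in the Bmp10-high arrays and at 5.01, 4.86, 4.79 and 5.18 log2 in the Bmp10-low arrays. Its difference of 2.27 ± 0.59 log2 recurred on labelled sides at 2.38 ± 0.11 log2 (adjusted p = 2.46e-09). The alcohol dehydrogenase gene Adh6b differed by 2.29 ± 0.36 log2, or by 1.32 log2 when its probe sets were averaged, and by 2.16 ± 0.08 log2 on labelled sides (adjusted p = 3.31e-10). Gria4, a glutamate receptor subunit gene, differed by 1.10 ± 0.14 log2 and by 0.93 ± 0.10 log2 on labelled sides (adjusted p = 3.98e-05). The peptidase gene Dpp4 differed by 1.26 ± 0.33 log2 and by 0.81 ± 0.10 log2 on labelled sides (adjusted p = 1.2e-04), whereas the semaphorin receptor gene Plxnc1, with 1.17 ± 0.53 log2 in Mst1 mice, did not pass there (0.40 ± 0.16 log2, adjusted p = 0.263).

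**Figure D3:**
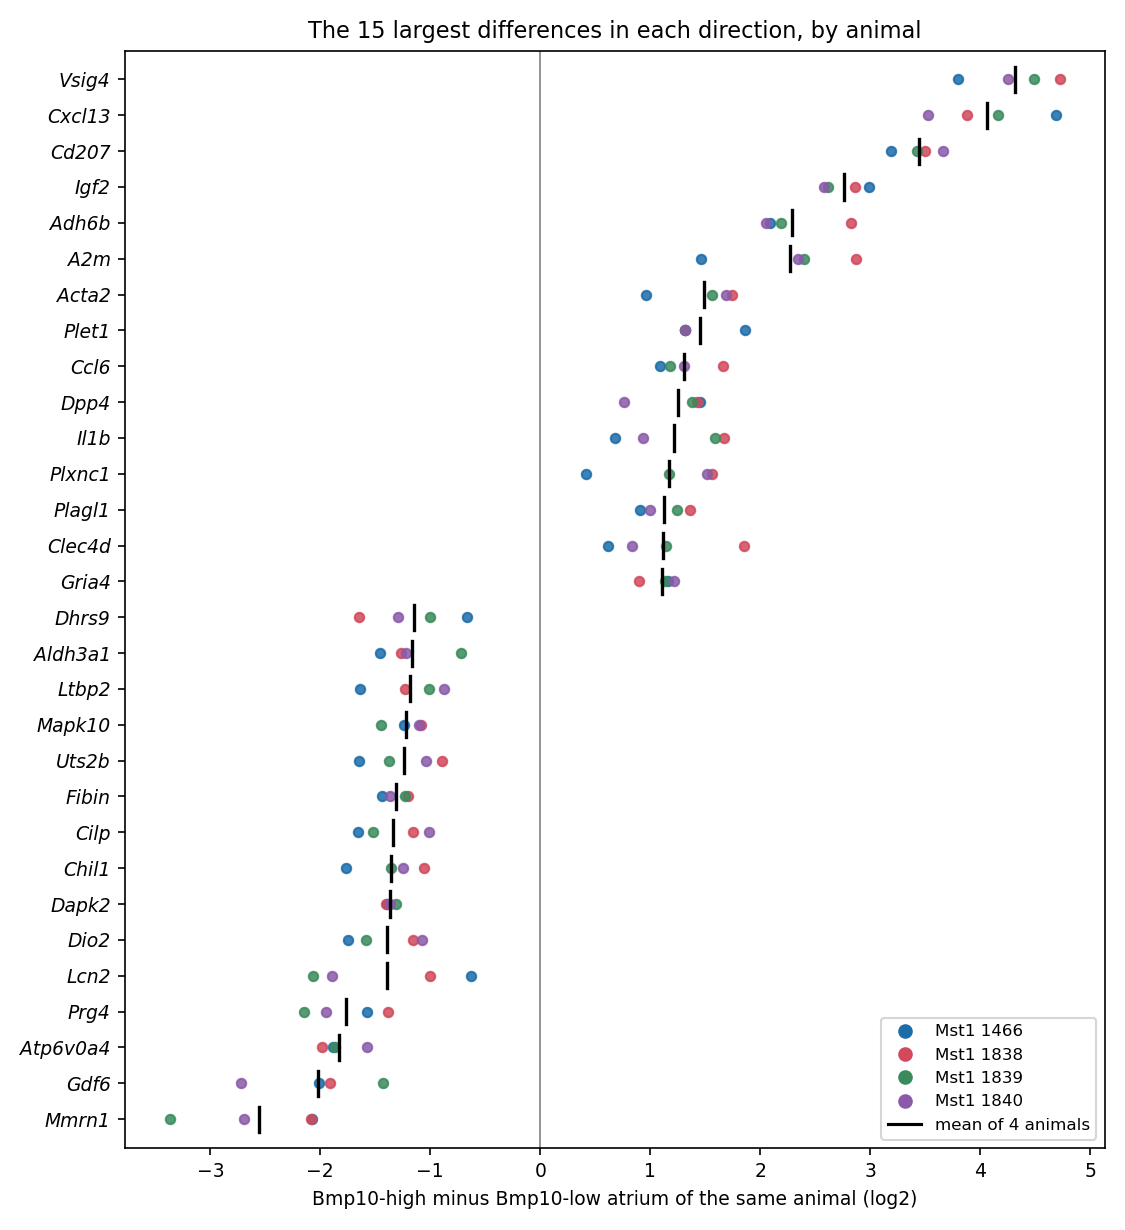
Bmp10-high minus Bmp10-low difference (x axis, log2) of each of the 4 Mst1 animals (coloured points) and their mean (black bar) for the 15 genes with the largest mean difference in each direction. All points of a gene lie on the same side of 0, by the way the genes were counted, and Vsig4 and Mmrn1 are at the ends with means of 4.32 and -2.56 log2.

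A few endothelial genes were higher in the Bmp10-high atrium of Mst1 mice. Of 19 measured endothelial and endocardial genes, 3 were counted as higher (Vwf, Npr3 and Tek) and 1 as lower (Cytl1), with a median of 0.33 log2. On labelled sides the median was -0.03 log2, with 2 called higher and 1 lower. Vwf, the von Willebrand factor gene, stood at 9.47, 10.87, 10.64 and 10.72 log2 in the Bmp10-high arrays and at 9.36, 9.61, 9.55 and 9.75 log2 in the Bmp10-low arrays. In 1466 the 2 atria lay close together, and in the other 3 animals they were about 1 log2 apart. Npr3, the natriuretic peptide clearance receptor gene of endocardium, stood at 10.25, 10.95, 10.76 and 10.48 log2 in the Bmp10-high arrays and at 9.72, 9.78, 9.84 and 10.01 log2 in the Bmp10-low arrays, without overlap. The angiopoietin receptor gene Tek differed by 0.60 ± 0.29 log2, or 0.50 log2 without 1838, and was the only one of these 3 called on labelled sides, at 0.36 ± 0.08 log2 (adjusted p = 0.022), a call lost without any one of 4 animals (adjusted p = 0.0529 to 0.0854). In dnPI3K-Mst1 alone, Npr3 and Vwf passed, at 0.62 and 0.71 log2 (limma, adjusted p = 0.00551 and 0.0489). Tek did not pass there (0.46 log2, adjusted p = 0.0893). In dnPI3K alone Npr3, Vwf and Tek did not pass, at -0.22, 0.09 and 0.26 log2 (limma, adjusted p = 0.355, 0.874 and 0.32). For Npr3 the 2 genotypes differed by 0.85 log2 (adjusted p = 0.0107). The pan-endothelial gene Pecam1 differed by 0.28 ± 0.33 log2 and Cdh5 by 0.23 log2, neither in the same direction in all 4 animals. The summed signal of the list was 11095 to 18108 in the Bmp10-high arrays, with 1466 lowest, and 11382 to 12908 in the Bmp10-low arrays, and without 1466 the counts were 7 higher and 1 lower. Cytl1, a small secreted protein gene, stood at 10.36, 10.22, 9.98 and 10.35 log2 in the Bmp10-high arrays and at 11.44, 10.94, 10.63 and 10.99 log2 in the Bmp10-low arrays. It was called lower on labelled sides (-0.47 ± 0.08 log2, adjusted p = 0.00154), with -0.98 log2 in dnPI3K-Mst1 and 0.05 log2 in dnPI3K, which differed by -1.03 log2 (adjusted p = 0.00354). By the Bmp10 split, Cytl1 was positive in all 4 Ntg animals, at 0.06 to 0.85 log2.

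Lymphatic genes ran the opposite way. Mmrn1, which encodes multimerin 1 of lymphatic endothelium and platelets, stood at 5.34, 5.82, 4.63 and 5.33 log2 in the Bmp10-high arrays and at 7.42, 7.91, 8.0 and 8.02 log2 in the Bmp10-low arrays. It had the largest lower value of the counted genes, -2.56 ± 0.61 log2 (SD, n = 4 animals), and differed by -2.62 ± 0.18 log2 on labelled sides (adjusted p = 4.76e-07). Reln, a matrix glycoprotein gene of lymphatic endothelium, stood at 5.77, 6.15, 5.75 and 6.11 log2 in the Bmp10-high arrays and at 6.43, 7.29, 6.83 and 7.05 log2 in the Bmp10-low arrays. It was called on labelled sides at -0.95 ± 0.11 log2 (adjusted p = 7.23e-05). Those 2 were the only ones counted of 7 measured lymphatic genes, whose median was -0.41 log2. A further 2 members, neither reaching 1.5-fold in Mst1 mice, were called lower on labelled sides: the receptor gene Flt4 (-0.41 ± 0.28 log2 in Mst1 mice and -0.66 ± 0.09 log2 on labelled sides, adjusted p = 2.5e-04) and the surface protein gene Pdpn (-0.47 ± 0.25 and -0.46 ± 0.07 log2, adjusted p = 0.00115). The lymphatic transcription factor gene Prox1, which myocytes also express, differed by -0.13 log2. The summed signal of the list overlapped, at 733 to 1188 in the Bmp10-high arrays and 988 to 1613 in the Bmp10-low arrays.

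Gdf6 and Bmp4, 2 other ligands of the BMP family, were lower where Bmp10 was high, while most of their list was not counted. Of 25 measured BMP and activin ligand and antagonist genes besides Bmp10, 1 was counted as higher (Bmper) and 4 as lower (Gdf6, Bmp4, Nbl1 and Inhba), with a median of -0.08 log2. Gdf6, a BMP ligand of joints and skeleton, stood at 5.48, 5.76, 5.62 and 5.28 log2 in the Bmp10-high arrays and at 7.49, 7.67, 7.05 and 8.01 log2 in the Bmp10-low arrays. Its difference was -2.02 ± 0.54 log2 in Mst1 mice (SD, n = 4 animals) and -1.22 ± 0.09 log2 on labelled sides (adjusted p = 6.43e-07). Bmp4 stood at 7.19, 7.97, 7.25 and 7.41 log2 in the Bmp10-high arrays and at 8.71, 8.27, 8.18 and 8.73 log2 in the Bmp10-low arrays, again without overlap, and differed by -0.63 ± 0.07 log2 on labelled sides (adjusted p = 8.74e-05). Inhba, the activin A subunit gene, differed by -0.64 ± 0.06 log2 and by -0.58 ± 0.08 log2 on labelled sides (adjusted p = 5.61e-04). The BMP antagonist gene Nbl1 differed by -0.72 ± 0.51 log2, or -0.49 log2 without 1466, which is under 1.5-fold. Bmper, which encodes a secreted modulator of BMP signalling, differed by 0.64 ± 0.07 log2 in Mst1 mice and by 0.02 ± 0.10 log2 on labelled sides (adjusted p = 0.981). Gdf2, which encodes BMP9, the closest relative of BMP10, differed by 0.08 log2 at a level of about 4.5 log2, close to the filter.

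Among BMP receptors, SMADs and targets the count was small and depended on 1 animal. Of 26 measured genes only Hamp was counted as higher, and 0 as lower. On labelled sides 5 of the 26 were called higher and 0 lower, with a median of 0.08 log2. The receptor genes Acvrl1 and Bmpr2 differed by 0.15 and 0.06 log2. The inhibitory SMAD gene Smad6 stood at 8.02, 8.99, 8.80 and 8.83 log2 in the Bmp10-high arrays and at 8.26, 7.74, 7.62 and 8.01 log2 in the Bmp10-low arrays, so that 1466 ran against the other 3 animals. It averaged 0.76 ± 0.69 log2, or 1.09 log2 without 1466, and was called on labelled sides at 0.54 ± 0.11 log2 (adjusted p = 0.00728). The target genes Id1, Id2 and Id3 averaged 0.42, 0.51 and 0.52 log2, or 0.65, 0.64 and 0.84 log2 without 1466, and none of them passed on labelled sides (adjusted p = 0.0928, 0.102 and 0.781). Atoh8, another BMP target, was higher in the Bmp10-high atrium of every animal by 0.56 ± 0.23 log2, just under 1.5-fold, and was called on labelled sides at 0.60 ± 0.10 log2 (adjusted p = 0.00178). Without 1466, 6 of the 26 genes were counted as higher, namely Hamp, Smad6, Id1, Id3, Atoh8 and the endothelial co-receptor gene Eng.

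Hamp, which encodes the iron hormone hepcidin, is a known BMP target in the liver and is also made in the heart. It stood at 8.06, 8.36, 8.07 and 8.29 log2 in the Bmp10-high arrays and at 7.85, 7.18, 6.12 and 7.47 log2 in the Bmp10-low arrays, a difference of 1.04 ± 0.72 log2 (SD, n = 4 animals). The groups did not overlap, but the difference of single animals ranged from 0.22 log2 in 1466 to 1.95 log2 in 1839. On labelled sides Hamp was called higher on the left, at 1.46 ± 0.15 log2 (adjusted p = 2.92e-05). The Bmp10-high arrays of Ntg mice held more Hamp, between 10.45 and 11.12 log2, against 5.84 to 7.0 log2 in their Bmp10-low arrays. The difference between the atria of Ntg mice averaged 4.37 log2 and that in Mst1 mice was smaller in every animal than in any Ntg animal; this difference between genotypes was not tested, since both splits rest on Bmp10. On the mean of both atria, Hamp fell by 0.92 log2 in Mst1 against Ntg mice (adjusted p = 0.00648). Hamp2, a near-identical copy whose signal may share transcripts with Hamp, stood at 6.22, 5.62, 5.74 and 6.03 log2 in the Bmp10-high arrays and at 5.48, 5.84, 6.18 and 5.43 log2 in the Bmp10-low arrays, with no common direction. The 250 bases before the start of each of the 2 genes are shown, with a short BMP-SMAD response element, GGCGCC, printed in capitals where it occurs. Whether this element has a part in the difference of Hamp between the atria was not tested. Both stretches lie on the minus strand of GRCm38.p6, at chr7:30944030-30944279 for Hamp and chr7:30924182-30924431 for Hamp2, as given by RefSeq.
Hamp: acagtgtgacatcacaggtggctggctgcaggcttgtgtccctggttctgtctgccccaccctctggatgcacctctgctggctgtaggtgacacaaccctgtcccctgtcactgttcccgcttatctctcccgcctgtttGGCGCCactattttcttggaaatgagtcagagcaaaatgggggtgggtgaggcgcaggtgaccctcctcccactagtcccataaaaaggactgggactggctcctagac
Hamp2: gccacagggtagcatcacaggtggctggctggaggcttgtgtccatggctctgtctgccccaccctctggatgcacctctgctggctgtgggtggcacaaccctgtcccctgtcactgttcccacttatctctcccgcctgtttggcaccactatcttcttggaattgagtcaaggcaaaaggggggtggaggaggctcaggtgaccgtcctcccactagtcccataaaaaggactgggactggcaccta
Over 253 aligned columns 227 bases were identical (89.7%). The element starts 109 bases before the start of Hamp, and at the aligned place Hamp2 carries G4A, counted from 1 at the 5′ end of the element, the other 5 bases being identical. GGCGCC reads the same on both strands and was found in 9.59% of 32851 promoter windows of this length. It was found upstream of 18.1% of the tested genes with a promoter in the table, of 8 of 64 genes counted as higher (12.5%) and of 11 of 77 counted as lower (14.3%). No match was found in the same window of Bmp10. A match describes letters only, and binding was not measured.

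Some pacemaker and conduction genes were higher and some lower in the Bmp10-high atrium. Of 19 measured sinoatrial node genes, 2 were counted as higher (Hcn4 and Cacna1d) and 2 as lower (Bmp4 and Gjc1), with a median of 0.10 log2. At any size, 7 were higher and 3 lower in all 4 Mst1 animals. On labelled sides 9 of the 19 were called higher and 2 lower, with a median of 0.23 log2. The pacemaker channel gene Hcn4 stood at 5.49, 6.17, 5.98 and 6.63 log2 in the Bmp10-high arrays and at 5.38, 5.38, 5.45 and 5.18 log2 in the Bmp10-low arrays, a difference of 0.72 ± 0.56 log2, or 0.48 log2 without 1840. Cacna1d, the L-type calcium channel gene of the node, stood at 5.50, 6.19, 6.11 and 6.40 log2 in the Bmp10-high arrays and at 5.38, 5.20, 5.37 and 5.39 log2 in the Bmp10-low arrays. Hcn4 and Cacna1d were both called on labelled sides, at 0.69 ± 0.09 log2 (adjusted p = 1.87e-04) and 0.76 ± 0.08 log2 (adjusted p = 3.23e-05). Shox2, a transcription factor gene of the node, differed by 0.32 ± 0.33 log2 in Mst1 mice, under 1.5-fold, and by 0.42 ± 0.10 log2 on labelled sides (adjusted p = 0.0328), a call lost without any one of 5 animals. Gjc1, which encodes connexin 45, differed by -0.68 ± 0.21 log2, with no call on labelled sides (adjusted p = 0.29). The summed signal of the list overlapped, at 2652 to 3744 in the Bmp10-high arrays and 3288 to 3727 in the Bmp10-low arrays. The desmosomal cadherin gene Dsc2 differed by 0.68 ± 0.19 log2 and the Notch target gene Hey1 by 0.86 ± 0.43 log2, and both were called on labelled sides (0.44 ± 0.11 log2, adjusted p = 0.0426, and 0.78 ± 0.08 log2, adjusted p = 1.79e-05). For Dsc2 the side difference was 0.96 log2 in dnPI3K-Mst1 and -0.08 log2 in dnPI3K, a gap of 1.04 log2 (adjusted p = 0.0478). The first of these Dsc2 calls was lost without any one of 5 animals and the second without any one of 7. By the Bmp10 split, Dsc2 was negative in all 4 Ntg animals, at -0.58 to -0.36 log2. Tbx5, a transcription factor gene of the atria, differed by -0.14 ± 0.18 log2.

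Acta2, the smooth muscle actin gene, was higher in the Bmp10-high atrium while the rest of its list was not counted. It stood at 9.92, 11.16, 10.98 and 11.28 log2 in the Bmp10-high arrays and at 8.95, 9.42, 9.42 and 9.60 log2 in the Bmp10-low arrays, a difference of 1.49 ± 0.36 log2 (SD, n = 4 animals). No Bmp10-high array overlapped the Bmp10-low group. It was called on labelled sides at 0.74 ± 0.10 log2 (adjusted p = 2.16e-04). It was the only one counted of 17 measured smooth muscle and pericyte genes, whose median was -0.05 log2; Myh11, the smooth muscle myosin gene, differed by -0.10 log2 and Tagln by 0.37 log2. The summed signal of the list was 5416 to 9507 in the Bmp10-high arrays and 6459 to 7404 in the Bmp10-low arrays. In sarcomere genes the skeletal actin gene Acta1 was counted as lower, at -0.79 ± 0.33 log2, as the only one of 33.

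Several matrix genes were lower in the Bmp10-high atrium, while most were not counted. Of 31 measured collagen genes, 3 were counted as lower (Col8a1, Col3a1 and Col6a3) and 0 as higher, and 13 were lower in all 4 animals at any size, with a median of -0.25 log2. Col8a1, a short-chain collagen of vessel walls, stood at 7.58, 7.62, 7.26 and 7.46 log2 in the Bmp10-high arrays and at 8.75, 8.82, 8.51 and 8.38 log2 in the Bmp10-low arrays, without overlap. It was called on labelled sides at -0.62 ± 0.10 log2 (adjusted p = 0.0012). Without 1466, 1 collagen gene was counted as lower, since Col3a1 and Col6a3 averaged -0.44 and -0.54 log2, under 1.5-fold. The summed signal of the list was 4874 to 8129 in the Bmp10-high arrays, with 1466 lowest, and 7920 to 8732 in the Bmp10-low arrays. Of 42 other matrix genes, 6 were counted as lower (Cilp, Adamts8, Vcan, Mfap5, Postn and Fmod) and 1 as higher (Ogn), with a median of -0.21 log2. Postn and Fmod averaged -0.52 and -0.40 log2 without 1466, under 1.5-fold. On labelled sides 6 collagen and 13 other matrix genes were called lower and 0 and 2 higher. Cilp, which encodes a cartilage matrix protein also made by cardiac fibroblasts, stood at 6.46, 6.82, 6.33 and 6.76 log2 in the Bmp10-high arrays and at 8.12, 7.98, 7.85 and 7.77 log2 in the Bmp10-low arrays. The metalloprotease gene Adamts8 stood at 6.36, 7.08, 7.10 and 7.41 log2 in the Bmp10-high arrays and at 7.65, 8.30, 8.12 and 8.35 log2 in the Bmp10-low arrays. Both were called on labelled sides, at -0.55 ± 0.11 log2 (adjusted p = 0.00755) and -1.03 ± 0.09 log2 (adjusted p = 9.53e-06). So were the proteoglycan gene Vcan and the microfibril gene Mfap5, while the periostin gene Postn, at -0.66 ± 0.28 log2 in Mst1 mice, was not (0.32 ± 0.09 log2, adjusted p = 0.0822) and had the opposite sign there. For Adamts8 the side difference was -1.65 log2 in dnPI3K and -0.42 log2 in dnPI3K-Mst1, where it did not pass (limma, adjusted p = 0.262).

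The fibroblast list shows how mixed these cells' genes were. Of 17 measured fibroblast genes, 2 were counted as higher (Dpep1 and Tcf21) and 3 as lower (Pi16, Mfap5 and Col3a1), with a median of -0.18 log2 and summed signals of 19090 to 21837 in the Bmp10-high arrays and 20808 to 21533 in the Bmp10-low arrays. Pi16, a peptidase inhibitor gene of adventitial fibroblasts, stood at 6.48, 6.56, 6.64 and 6.99 log2 in the Bmp10-high arrays and at 7.82, 7.82, 7.72 and 7.71 log2 in the Bmp10-low arrays. It was called on labelled sides at -1.45 ± 0.07 log2 (adjusted p = 3.27e-09). Dpep1, a dipeptidase gene, stood at 8.51, 9.03, 8.92 and 9.27 log2 in the Bmp10-high arrays and at 7.76, 8.05, 7.98 and 7.88 log2 in the Bmp10-low arrays, but did not pass on labelled sides (adjusted p = 0.618). Tcf21, a transcription factor gene of epicardium-derived fibroblasts, differed by 0.69 ± 0.46 log2, or 0.52 log2 without 1838, and was called on labelled sides (0.39 ± 0.09 log2, adjusted p = 0.0275), a call lost without any one of 6 animals. Prg4, the lubricin gene, stood at 6.12, 6.91, 6.07 and 6.84 log2 in the Bmp10-high arrays and at 7.69, 8.30, 8.22 and 8.79 log2 in the Bmp10-low arrays, and was called on labelled sides at -1.50 ± 0.13 log2 (adjusted p = 6.77e-06). Ltbp2, which encodes a microfibril protein of the TGF-beta binding family, differed by -1.19 ± 0.34 log2 but not past the threshold on labelled sides (-0.33 ± 0.09 log2, adjusted p = 0.0542).

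Several secreted signals and enzymes completed the lower genes. Of 44 measured guidance, Notch and growth factor genes, 1 was counted as higher (Igf2) and 3 as lower (Nrg1, Sema3d and Edn1). Nrg1, the neuregulin ligand of ERBB receptors, stood at 7.12, 8.31, 7.78 and 8.10 log2 in the Bmp10-high arrays and at 8.62, 8.72, 8.50 and 9.0 log2 in the Bmp10-low arrays. The endothelin gene Edn1 stood at 6.77, 8.16, 7.68 and 7.68 log2 in the Bmp10-high arrays and at 8.31, 8.31, 8.13 and 8.68 log2 in the Bmp10-low arrays, with 1 overlapping pair of arrays from different animals, and it averaged -0.54 log2 without 1466. Nrg1, Sema3d and Edn1 were all called on labelled sides, at -0.89 ± 0.10, -0.65 ± 0.07 and -0.71 ± 0.12 log2 (adjusted p = 3.98e-05, 3.98e-05 and 0.00234). For Nrg1 the side difference was -1.49 log2 in dnPI3K and -0.28 log2 in dnPI3K-Mst1, where it did not pass (limma, adjusted p = 0.77). Atp6v0a4, a proton pump subunit gene, stood at 5.40, 5.62, 5.18 and 5.54 log2 in the Bmp10-high arrays and at 7.29, 7.60, 7.05 and 7.12 log2 in the Bmp10-low arrays. Its difference was -1.83 ± 0.17 log2 in Mst1 mice and -0.40 ± 0.08 log2 on labelled sides (adjusted p = 0.0074). Dapk2, a death-associated kinase gene, differed almost equally in all 4 animals, by -1.37 ± 0.04 log2, and by -0.91 ± 0.08 log2 on labelled sides (adjusted p = 4.25e-06). Dio2, the enzyme gene that activates thyroid hormone, differed by -1.39 ± 0.33 log2, the chitinase-like gene Chil1 by -1.36 ± 0.30 log2, the secreted protein gene Fibin by -1.31 ± 0.11 log2 and the urotensin gene Uts2b by -1.24 ± 0.34 log2, and these 4 were called on labelled sides as well. The stress kinase gene Mapk10 differed by -1.22 ± 0.17 log2, or by -0.60 log2 when its probe sets were averaged, and by -1.56 ± 0.10 log2 on labelled sides (adjusted p = 3.06e-07). Lcn2, an iron-siderophore binding protein gene, stood at 5.89, 6.10, 5.61 and 6.04 log2 in the Bmp10-high arrays and at 6.52, 7.10, 7.68 and 7.94 log2 in the Bmp10-low arrays, and differed by -1.01 ± 0.12 log2 on labelled sides (adjusted p = 7.9e-05). Its side difference was -1.65 log2 in dnPI3K-Mst1 and -0.37 log2 in dnPI3K, where it did not pass (limma, adjusted p = 0.329).

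**Figure D4:**
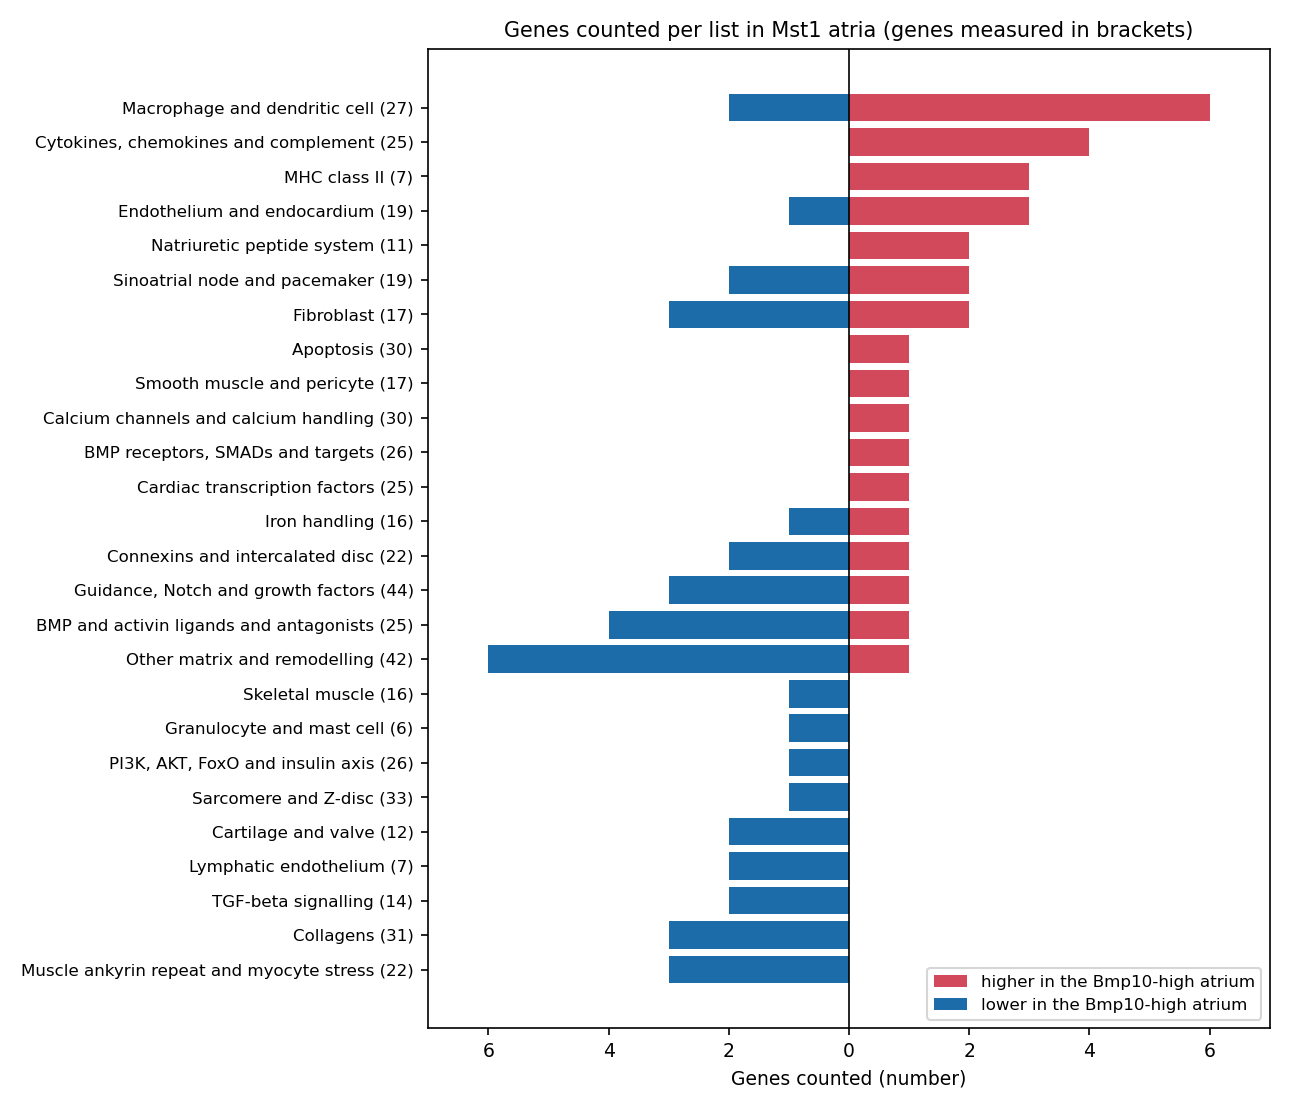
Number of genes counted as higher (right, red) or lower (left, blue) in the Bmp10-high atrium of Mst1 mice for each gene list with at least 1 counted gene; the number of genes measured is in brackets, and a gene may stand in several lists. Macrophage and dendritic cell genes had 6 higher and 2 lower of 27, and non-collagen matrix genes 1 higher and 6 lower of 42.

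Several lists of muscle work and energy supply held no counted gene. Over all genes 0.585% were counted as higher and 0.67% as lower, and at such shares lists of these sizes can hold 0. The counts of 0 therefore do not set these lists apart. The counts with all 4 animals were 0 for the lists of 15 atrial and 11 ventricular myocardial genes besides Bmp10, 28 potassium channel genes, 10 sodium channel and pump genes, 29 Hippo core genes, 22 YAP and TEAD targets, 54 oxidative phosphorylation genes, 23 citrate cycle genes and 31 fatty acid genes. Without 1466, 2 potassium channel genes and 1 ventricular gene were counted as higher and 1 potassium channel gene as lower. The median differences of these lists lay between -0.15 log2 for the citrate cycle and -0.02 log2 for potassium channels, against -0.05 log2 over all genes. The Hippo effector gene Yap1 differed by -0.23 log2. Nppb, the B-type natriuretic peptide gene of strained myocytes, stood at 12.23, 12.69, 12.79 and 12.59 log2 in the Bmp10-high arrays and at 12.47, 12.78, 12.74 and 12.77 log2 in the Bmp10-low arrays, which overlapped. The phosphoinositide 3-kinase catalytic gene Pik3ca differed by -0.37 ± 0.18 log2, under 1.5-fold. Of 22 genes of muscle ankyrin repeat proteins and myocyte stress, 3 were counted as lower (Acta1, Thbs1 and Fhl1), of which Thbs1 and Fhl1 averaged -0.46 and -0.52 log2 without 1466.

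Whether a side difference depends on the Mst1 transgene was tested only among animals with dnPI3K, whose labels all put high Bmp10 on the left. Mst1 and Ntg animals, whose labels do not, were left out, so the choice of animals rests on Bmp10 values. The test compared the labelled left minus right difference between dnPI3K-Mst1 and dnPI3K animals (n = 4 each). It called 118 genes, 84 with a more positive difference in dnPI3K-Mst1 (0.552%) and 34 with a more negative one (0.223%). Of the 89 genes higher in the Bmp10-high atria of Mst1 mice, 7 were called more positive and 4 more negative. Of the 102 lower genes, 6 were called more positive and 8 more negative. Plet1, which encodes a surface protein of epithelial progenitors, was the extreme. In Mst1 mice it stood at 8.25, 8.44, 8.99 and 8.74 log2 in the Bmp10-high arrays and at 6.38, 7.12, 7.67 and 7.43 log2 in the Bmp10-low arrays. The labelled left minus right difference was 1.76 log2 in dnPI3K-Mst1 and -1.79 log2 in dnPI3K, and the 2 differed by 3.55 log2 (adjusted p = 5.7e-05). Every Mst1 and dnPI3K-Mst1 animal was thus positive and every dnPI3K animal negative, and the Ntg animals lay between -0.92 and -0.44 log2 by the Bmp10 split.

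Other genes had a more negative or a more positive difference in dnPI3K-Mst1. Gdf6 differed by -1.79 log2 in dnPI3K-Mst1 and by -0.65 log2 in dnPI3K, a change of -1.14 log2 (adjusted p = 0.00449), and by -0.10 log2 in Ntg by the Bmp10 split. Postn differed by -0.42 log2 in dnPI3K-Mst1 and by 1.06 log2 in dnPI3K (change of -1.48 log2, adjusted p = 9.64e-04). Hamp differed by 0.50 log2 in dnPI3K-Mst1 and by 2.42 log2 in dnPI3K (change of -1.93 log2, adjusted p = 0.00478). In dnPI3K-Mst1 alone Hamp did not pass (limma, adjusted p = 0.651), and its animals ranged from -0.24 to 1.32 log2. Pi16 kept its sign but was less sided with Mst1, at -0.73 log2 in dnPI3K-Mst1 and -2.17 log2 in dnPI3K (change of 1.44 log2, adjusted p = 9.15e-05), beside -1.10 log2 in Mst1 and -1.78 log2 in Ntg by the Bmp10 split. Dpep1, at 0.72 log2 in dnPI3K-Mst1 and -0.48 log2 in dnPI3K, turned in sign (change of 1.19 log2, adjusted p = 9.64e-04). Among the leading myeloid genes, Cxcl13 differed by 3.52 log2 in dnPI3K-Mst1 and by 4.58 log2 in dnPI3K (change of -1.06 log2, adjusted p = 0.0175), a call lost without any one of 3 animals (adjusted p = 0.0593 to 0.0701). The change was not past the threshold for Vsig4 (0.47 log2, adjusted p = 0.682), Cd207 (0.46 log2, adjusted p = 0.738) and Igf2 (-0.06 log2, adjusted p = 0.996). For Vsig4, Cd207 and Igf2 the Bmp10 split of Ntg mice gave 3.71, 3.49 and 1.38 log2.

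**Figure D5:**
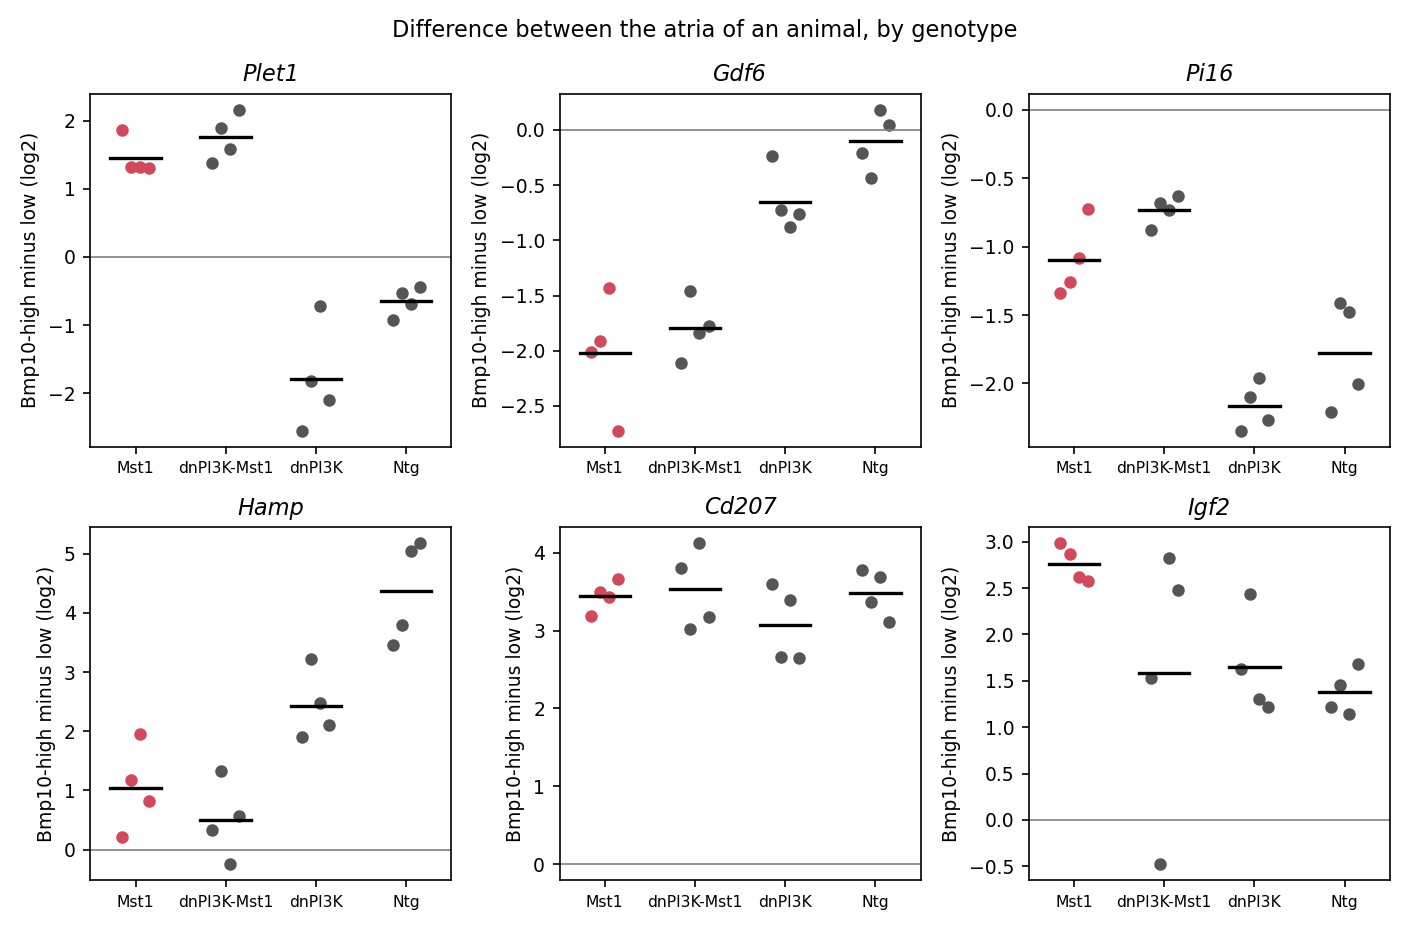
Bmp10-high minus Bmp10-low difference (y axis, log2) of each animal (points) and the mean of 4 animals (bar) for 6 genes in Mst1, dnPI3K-Mst1, dnPI3K and Ntg mice; in dnPI3K-Mst1 and dnPI3K the Bmp10-high array is the one labelled left. Plet1 is above 0 in all 8 animals with Mst1 and below 0 in all 8 without it, while Cd207 is 2.64 log2 or more in every animal.

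Counted in the same way, 66 genes were higher and 85 lower in the Bmp10-high atria of dnPI3K-Mst1 mice, 123 and 207 in dnPI3K mice, and 156 and 139 in Ntg mice. Of the 89 genes higher in Mst1 mice, 39 were also counted as higher in dnPI3K-Mst1 (43.8% of the Mst1 genes and 59.1% of the dnPI3K-Mst1 genes). The overlap was 35 genes with dnPI3K (39.3% and 28.5%) and 38 genes with Ntg (42.7% and 24.4%). Of the 102 lower genes, 50 were shared with dnPI3K-Mst1 (49.0% and 58.8%), 39 with dnPI3K (38.2% and 18.8%) and 29 with Ntg (28.4% and 20.9%). Counted in the opposite direction were 0 genes in dnPI3K-Mst1, 2 higher and 2 lower genes in dnPI3K, and 2 higher and 3 lower genes in Ntg. Across genes, without Bmp10, the mean difference in Mst1 mice correlated at 0.54 with that in dnPI3K-Mst1, 0.40 with dnPI3K and 0.33 with Ntg; single Mst1 animals correlated at 0.11 to 0.50 with each other, and genes are not independent replicates.

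Genes that differed between the atria often differed between genotypes too. On the mean of both atria of each animal, which does not depend on the Bmp10 split, limma called 1919 genes higher (12.6%) and 2165 lower (14.2%) in Mst1 than in Ntg mice. Of the 102 genes lower in the Bmp10-high atrium, 67 were higher in Mst1 mice (65.7%) and 9 lower (8.82%), with a median of 0.63 log2. Of the 89 genes higher in the Bmp10-high atrium, 14 were higher in Mst1 mice (15.7%) and 40 lower (44.9%), with a median of -0.30 log2, against 0 over all genes. The 8 Mst1 arrays enter both the split and this comparison, so the counts are given side by side only. Nrg1 rose by 2.76 log2 (adjusted p = 1.45e-09), Thbs1 by 2.18 log2 (adjusted p = 4.9e-06), Edn1 by 1.92 log2 (adjusted p = 2.56e-08), Prg4 by 1.90 log2 (adjusted p = 2.3e-08) and Mmrn1 by 1.62 log2 (adjusted p = 1.04e-05). Among the genes higher in the Bmp10-high atrium, Igf2 fell by 1.46 log2 (adjusted p = 0.00175) and Timd4 fell by 0.83 log2 (adjusted p = 4.27e-07). Vsig4, Cxcl13 and Cd207 did not pass, at -0.51, 0.29 and -0.12 log2 (adjusted p = 0.0893, 0.285 and 0.464).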

How the data were processed

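The deposited values are log2 signals of Affymetrix Mouse Gene 1.0 ST probe sets from 32 arrays, made by the authors with Affymetrix Expression Console and PLIER, per the submitters' processing notes. Versions, scaling and the base of the logarithm are not given in the sources used here; base 2 was taken from the range of 1.16 to 14.08. Array medians lay between 5.51 and 5.68, so values were used as deposited. How scaling was done could shift all genes of an array together.

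Of 35512 probe sets, 21789 with a single gene symbol were kept (1621 had several and 12102 none), the brightest standing for each of 19938 genes. A floor of 4.48 log2 on the mean, set at percentile 30 over all probe sets, left 15219 genes. Samples were grouped by genotype, side and animal as labelled.

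In Mst1 mice, Bmp10-high minus Bmp10-low was described within animals. Labelled sides in dnPI3K-Mst1 and dnPI3K mice (animal as a block), the difference of those sides between the 2 genotypes, and Mst1 against Ntg on animal means were fitted with limma 3.58.1 in R 4.3.3 (lmFit, eBayes with a trend over level), two-sided, with Benjamini-Hochberg adjustment over all genes and a call at an adjusted p under 0.05. Side contrasts, planned as right minus left, are given as left minus right. A p-value here reflects only how these animals varied. The procedure was tested on simulated data.

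The arrays of an animal are paired by its number in the labels. The deviations of its arrays from their group means correlated at 0.35, 0.01, 0.23 and 0.27 in the Mst1 animals. These correlations were 0.2, 0.11, 0 and 0.15 in the dnPI3K animals and 0.4, 0.44, 0.1 and -0.01 in the dnPI3K-Mst1 animals. Arrays correlated best with their own number in 3 of 4 Mst1, 2 of 4 dnPI3K and 2 of 4 dnPI3K-Mst1 animals, so the values back the pairing only in part. No array was left out, and no 2 arrays were duplicates (highest correlation 0.9903).

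Named genes are the 15 largest counted in each direction, up to 4 counted members of each of 54 lists (1009 of 1161 genes measured), 12 fixed genes, and the 5 largest in each direction for the difference between dnPI3K-Mst1 and dnPI3K; unnamed gene models were left out and the text gives a selection. Correlations with Bmp10 over arrays were not used, since its values form separate clusters. List genes named without being counted, Hamp2 among them, were chosen after their values were seen. The members and lists were chosen with earlier results of these data known. Alternatives were other scalings, no filter, the mean of probe sets, other fits, a 2-fold limit and leaving out each animal.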

Additional observations from a re-analysis of the deposited data

Results flagged for a closer look

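Single animals stood far from the other 3 Mst1 animals in 4 of 86 genes examined, where chance gives about 1 in 20. The count of 4 is near that share and does not set these genes apart. The Bmp10-high minus Bmp10-low difference of Plet1 was 1.87 log2 in 1466, that of Dpp4 was 0.77 log2 in 1840, that of Cd74 was 0.04 log2 in 1466, and that of Tc2n was -1.64 log2 in 1840.

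The labelled left minus right difference differed between dnPI3K-Mst1 and dnPI3K animals (n = 4 each, limma, adjusted p under the threshold) in 23 of the named genes. Given as dnPI3K-Mst1 minus dnPI3K, it was more positive by 3.55 log2 for Plet1, 2.59 for Inmt, 1.97 for Ifi205, 1.62 for Cpne7, 1.59 for Scara5, 1.44 for Pi16, 1.25 for Mapk10, 1.23 for Adamts8, 1.21 for Uts2b, 1.21 for Nrg1, 1.19 for Dpep1, 1.04 for Dsc2, 1.02 for A2m and 0.85 for Npr3. It was more negative for Tc2n (-2.12 log2), Penk (-2.06), Lepr (-1.69), Hamp (-1.93), Postn (-1.48), Lcn2 (-1.29), Gdf6 (-1.14), Cxcl13 (-1.06) and Cytl1 (-1.03). The calls of Dsc2, A2m, Cxcl13 and Lcn2 were lost without any one of 7, 6, 3 and 1 of the 8 animals. Inmt, Ifi205, Cpne7, Scara5, Tc2n, Penk and Lepr were named only for the size of this difference, and Plet1, Hamp and Postn partly so. The count of 23 is therefore partly set by the choice of genes and does not set the named genes apart. Over all 15219 genes the same test called 118.

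Among the 86 named genes, 7 differed in one direction in every Mst1 animal and in the other in every Ntg animal. This was not tested, since both splits rest on Bmp10, and the share over all genes is not given here. Plet1, Inmt, Ifi205, Tc2n and Postn were also named for their difference between dnPI3K-Mst1 and dnPI3K. For Ifi205 the atria of Mst1 animals 1839 and 1840 differed by 0.05 and 0.01 log2 only. The Mst1 minus Ntg gap in the mean Bmp10-high minus Bmp10-low difference was 2.42 log2 for Ifi205, 2.31 for Inmt, 2.1 for Plet1, 1.14 for Dsc2, -1.13 for Cytl1, -1.19 for Postn and -1.44 for Tc2n.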

How the results depend on the processing

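The 191 genes counted in Mst1 mice and the 121 also called on labelled sides were 46 and 37 at a limit of 2-fold. With the Mst1 arrays set apart by side label, 4 genes were counted. Leaving out each animal gave 218 to 241 genes counted, 109 to 136 shared, 407 to 521 called on labelled sides (main 553), 81 to 127 for the difference between dnPI3K-Mst1 and dnPI3K (main 118) and 3352 to 4806 for Mst1 against Ntg (main 4084). The side test called 169 genes in dnPI3K-Mst1 alone. With no replicate block, atria were not paired by animal. The rule in Mst1 was then that every Bmp10-high array lay above, or below, every Bmp10-low array, with the same 1.5-fold limit. Under these settings the counts were 153 in Mst1, 390 on labelled sides and 43 for the difference between dnPI3K-Mst1 and dnPI3K. Other scalings, filters, probe set rules and variance fits kept these counts within 1.5 times. Of 602 alternatives for named genes 0 reversed and 2 moved by over 1 SD, Adh6b to 1.32 log2 and Mapk10 to -0.6 log2, both with the mean of probe sets. The limits are the 4 animals, the grouping by a measured gene, side labels that conflict with Bmp10, and levels near 4.48 log2, where arrays separate signal from background poorly.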
